A study of Mus musculus with 14 samples.

Results

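Genes that mark the choroid plexus and the ependyma of the brain ventricles were followed through ribosome pull-downs and total homogenates of mouse brainstem. The members were chosen by symbol: 8 of the 55421 mouse genes of the deposited count table, of which 5 mark the choroid plexus (Ttr, Kl, Folr1, Clic6 and Otx2) and 3 the ependyma and its motile cilia (Foxj1, Tmem212 and Ccdc153). The choroid plexus is a folded secretory epithelium that hangs in the ventricles, makes cerebrospinal fluid and releases carrier proteins into it. Ependymal cells line the ventricle wall next to it and move the fluid with motile cilia. Neither cell type belongs to the locus coeruleus, the noradrenergic nucleus beside the fourth ventricle that was infused here.

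The 7 mice carried TH-Cre, in which the promoter of tyrosine hydroxylase drives Cre, and Slc6a2-eGFP/Rpl10a, a green fluorescent ribosomal protein driven by the noradrenaline transporter gene, on a C57Bl/6 background. At 2 to 3 months of age the locus coeruleus was infused with P364S mutant human tau in 4 animals, lettered B, C, L and M, and with the fluorescent protein EYFP in the 3 control animals, lettered H, I and K. From every animal came a total brainstem homogenate (pre-IP) and the RNA bound to tagged ribosomes pulled out of it (IP), which made the groups tau pre-IP and tau IP (n = 4 each) and EYFP pre-IP and EYFP IP (n = 3 each). The tag is driven by the noradrenaline transporter gene, and the construct was infused at the locus coeruleus, whereas the homogenate held every cell type of the dissected piece.

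Total counts ran from 41843489 to 65664551 per library, and levels are given as CPM, a gene's counts per 1000000 counted reads, with a floor of 3 counts at 0.0457 to 0.0717 CPM. These limits cover counting error only, since reads were amplified and carry no molecular identifier. RNA integrity numbers were 7.7 to 9 except for 4.2 in the IP of animal I. Animal M is labelled female, but both of its libraries held counts of Y-linked genes (674 in pre-IP and 1153 in IP, summed over 4 genes), with 0 Xist counts in pre-IP and 21 in IP. Values without it are given where a result rests on it. Animal K, an EYFP control, held 408 and 398 counts of the human tau construct in pre-IP and IP, against 2 to 18 in the libraries of H and I. The tau animals held 6122 in B, 3527 in C, 5049 in L and 11358 in M in pre-IP. In IP they held 47177 in B, 17215 in C, 6943 in L and 10158 in M. Spread of the construct beyond the infused nucleus was not tested. The 10 noradrenergic markers summed to 203 to 260 CPM in pre-IP, with Hand2 at 0 in all 14 libraries, and to 765 to 5683 CPM in tau IP against 361 to 429 CPM in EYFP IP. The IP library of animal B stood apart: it held 20813 genes with a count against 23632 to 25885 in the other IP libraries, and it was the lowest of the 7 IP libraries for 44.2% of the 15062 genes with a mean of at least 1 CPM. RNA of the IP samples was at 0.1 ng per microlitre in B, 0.8 in C, 0.2 in L and 0.5 in M. In the EYFP animals it was at 2.8 in H, 1.6 in I and 0.7 in K. The part of RNA concentration in the IP values was not tested.

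Ttr encodes transthyretin, the carrier of thyroid hormone and retinol that the choroid plexus secretes into the cerebrospinal fluid (ENSMUSG00000061808.4, chromosome 18, 20665280 to 20674321, GRCm38). In tau pre-IP it had 1595 CPM in animal B, 1255 in C, 116 in L and 23.3 in M. In EYFP pre-IP it had 835 CPM in H, 763 in I and 1272 in K. Animals L and M thus lay below the EYFP animals, while B lay above all 3 of them and C above H and I. The highest pre-IP library held 68.4 times the CPM of the lowest, a log2 range of 6.09, and only 29 of 14995 genes with a mean of at least 1 CPM had a wider one. The median log2 range of those genes was 0.64.

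The tau IP libraries had 616 CPM of Ttr in B, 1139 in C, 94.9 in L and 31.4 in M. The EYFP IP libraries had 1049 CPM in H, 1783 in I and 1562 in K. L and M were thus low in both fractions, taken from the same homogenate. Per kilobase of exon, Ttr ranked between 10 and 125 among all genes in the other 10 libraries, against 688 and 875 in the pre-IP and IP of L and 2952 and 2365 in those of M. In bulk tissue, fewer choroid plexus cells and less RNA per cell cannot be told apart.

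**Figure D1:**
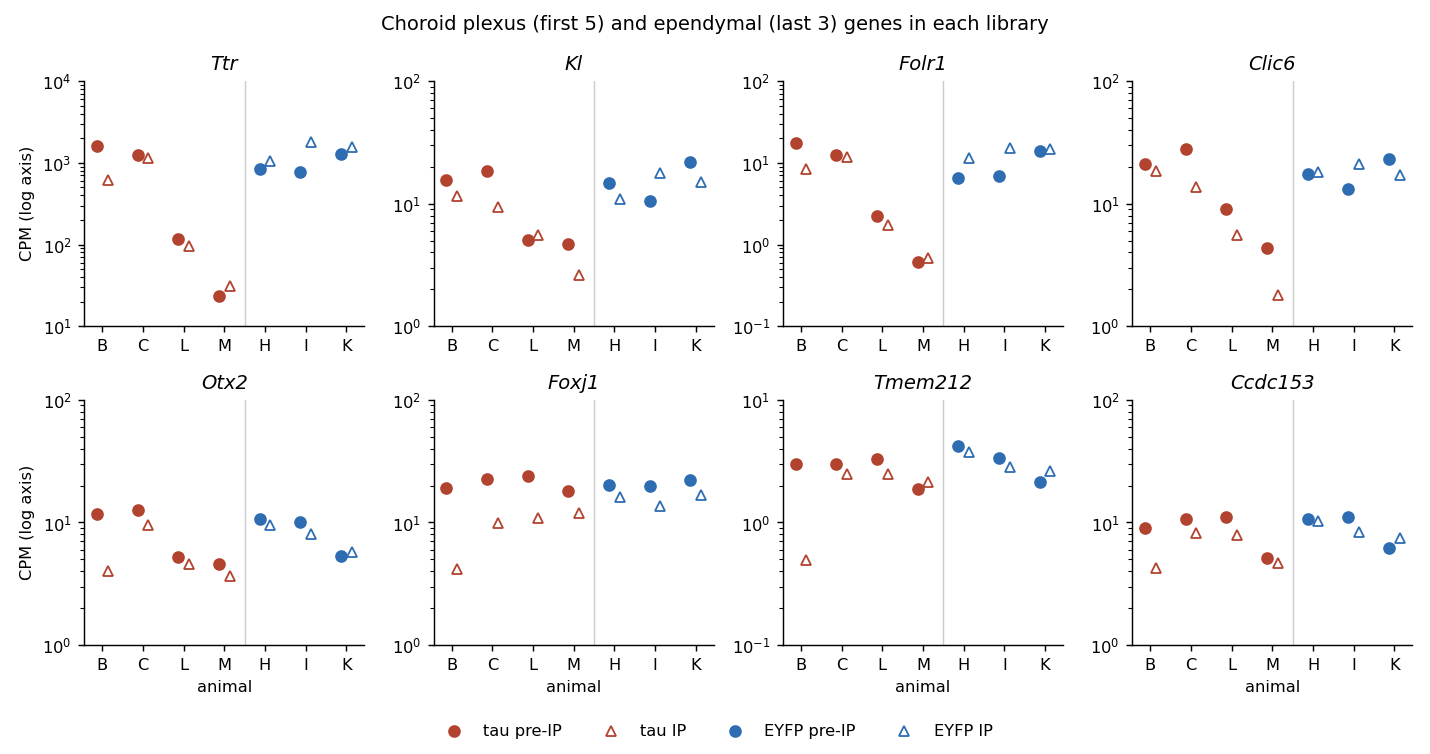
CPM (log axis) of each of the 8 genes in the 14 libraries, by animal, with pre-IP as filled circles, IP as open triangles, tau animals in red and EYFP animals in blue. Ttr, Kl, Folr1 and Clic6 are low in both fractions of L and M, whereas Foxj1 lies between 18.2 and 23.9 CPM in every pre-IP library and lower in every IP library.

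Folr1, which encodes the folate receptor that carries folate across the choroid plexus epithelium, followed Ttr most closely of the members. It lies on chromosome 7 (101858331 to 101870788). Its pre-IP level was 17.4 CPM in B, 12.3 in C, 2.26 in L and 0.61 in M, and 6.50 in H, 6.86 in I and 13.8 in K. In IP it was 8.36 CPM in B, 11.9 in C, 1.74 in L and 0.69 in M, and 11.4 in H, 15.3 in I and 14.7 in K. The lowest pre-IP library, that of M, held 38 counts, and the highest held 28.4 times its CPM, a spread exceeded by 45 of 14995 genes.

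Kl encodes Klotho, a membrane protein that acts as a co-receptor for the hormone FGF23 and that the choroid plexus epithelium makes (chromosome 5, 150952607 to 150993817). Its pre-IP values were 15.6 CPM in B, 18.4 in C, 5.03 in L and 4.71 in M, against 14.8 in H, 10.6 in I and 22.0 in K. Its IP values were 11.5 CPM in B, 9.38 in C, 5.50 in L and 2.60 in M, against 10.96 in H, 17.8 in I and 15.02 in K. L and M were the lowest libraries of either fraction, and the remaining animals of the tau and EYFP groups overlapped in pre-IP.

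Clic6, which encodes a protein of the chloride intracellular channel family, had the same 2 animals at the bottom (chromosome 16, 92485736 to 92541243). In pre-IP it had 20.9 CPM in B, 28.0 in C, 9.13 in L and 4.35 in M, and 17.3 in H, 13.2 in I and 23.3 in K. In IP it had 18.4 CPM in B, 13.7 in C, 5.60 in L and 1.80 in M, and 18.3 in H, 21.1 in I and 17.1 in K. The ratio of highest to lowest was 6.44 in pre-IP and 11.7 in IP.

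Otx2, a homeodomain transcription factor of the choroid plexus that some midbrain and diencephalic neurons also express, had another pattern (chromosome 14, 48657677 to 48673819). Its pre-IP level was 11.7 CPM in B, 12.7 in C, 10.7 in H and 10.2 in I, and 5.20 in L, 4.54 in M and 5.36 in K. The libraries with low numbers in their labels (2 to 11: animals B, C, H and I) were thus all above those with high numbers (17 to 26: K, L and M), in tau and EYFP animals alike. In IP the values were 4.02 CPM in B, 9.62 in C, 9.55 in H and 8.01 in I, and 4.62 in L, 3.64 in M and 5.70 in K, where B broke that order. The exons of Otx2 share 154 bases, 3.65% of their length, with the antisense gene Otx2os1, which averaged 0.61 CPM, and 168 bases, 3.98%, with Gm49154 on the same strand, which averaged 0.0355 CPM. The use of strand in counting is not given in the sources used here.

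The library numbers split the 4 genes led by Ttr differently. Among the low numbers, Ttr in pre-IP was higher in both tau animals (1595 and 1255 CPM) than in both EYFP animals (835 and 763 CPM). Among the high numbers it was lower in both tau animals (116 and 23.3 CPM) than in the single EYFP animal K (1272 CPM). K, whose pre-IP library has number 17 beside 18 and 19 for L and M, had the highest pre-IP value of Kl of all 7 animals. With the library-number range as a covariate, the log2 fold change of Ttr in tau against EYFP was -1.43 in pre-IP (SE 1.01, edgeR adjusted p 1.0) and -2.35 in IP (SE 0.85, edgeR adjusted p 0.255). The ranges were not fitted separately.

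Foxj1 encodes the forkhead factor that switches on the motile cilium programme (chromosome 11, 116330704 to 116335399). Its pre-IP level was 19.2 CPM in B, 22.6 in C, 23.9 in L and 18.2 in M, and 20.2 in H, 20.01 in I and 22.2 in K. The highest library held 1.31 times the lowest, and 81.7% of the 14995 genes had a wider log2 range. Foxj1 was therefore among the steadier genes of the same homogenates in which Ttr varied 68.4-fold. In IP it was 4.15 CPM in B, 9.81 in C, 10.8 in L and 12.1 in M, and 16.0 in H, 13.6 in I and 16.6 in K.

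Tmem212, which encodes a membrane protein enriched in ependymal cells, was the member with the fewest counts (chromosome 3, 27866066 to 27896368). Its pre-IP level was 3.01 CPM in B, 3.00 in C, 3.30 in L and 1.87 in M, and 4.21 in H, 3.33 in I and 2.15 in K. In IP it was 0.50 CPM in B, which rests on 28 counts, 2.48 in C, 2.49 in L and 2.14 in M, and 3.78 in H, 2.82 in I and 2.64 in K. M and K were the lowest of the 7 pre-IP libraries, and L, low for Ttr, was not among them.

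Ccdc153, whose product belongs to the nexin-dynein regulatory complex of motile cilia, had those same animals at the bottom of pre-IP (chromosome 9, 44240676 to 44247306). It had 8.98 CPM in B, 10.6 in C, 11.1 in L and 5.17 in M, and 10.7 in H, 11.1 in I and 6.16 in K. In IP it had 4.24 CPM in B, 8.25 in C, 7.97 in L and 4.67 in M, and 10.3 in H, 8.38 in I and 7.44 in K. M held the lowest pre-IP value for all 8 members, choroid and ependymal alike, where it was the lowest library for 14.5% of all 14995 genes.

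Tmem212 and Ccdc153 were both lowest in M and K among the pre-IP libraries. Their log2 CPM had a Pearson r of 0.92, which rests on those animals, since it was 0.37 without them. The promoters of both are shown, the 250 bases before the start in RefSeq (GRCm38.p6). Foxj1 belongs to the forkhead factors and RFX factors bind the X-box, so both strands were searched for a forkhead core (TGTTTA) and an X-box half-site (GTTGCC), which do not overlap each other here. These short forms were chosen after the sequences were seen. Longer forms, TGTTTAC and GTTGCCA, had no match in either window. Capitals mark the matches, both on the strand of the gene.
Tmem212, chr3:27896369-27896618, minus strand: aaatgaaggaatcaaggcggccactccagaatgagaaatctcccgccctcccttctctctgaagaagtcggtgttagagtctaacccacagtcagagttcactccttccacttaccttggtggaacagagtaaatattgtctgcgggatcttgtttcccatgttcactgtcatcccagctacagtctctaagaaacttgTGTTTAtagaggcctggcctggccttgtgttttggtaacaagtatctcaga
Ccdc153, chr9:44240427-44240676, plus strand: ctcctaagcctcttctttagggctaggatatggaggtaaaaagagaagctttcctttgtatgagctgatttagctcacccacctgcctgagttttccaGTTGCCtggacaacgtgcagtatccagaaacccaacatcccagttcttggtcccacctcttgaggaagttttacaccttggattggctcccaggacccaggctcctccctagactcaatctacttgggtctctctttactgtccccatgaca
The forkhead core of Tmem212 begins 51 bases before the start, and the X-box half-site of Ccdc153 begins 152 bases before it. Of 32851 promoters of the same length, 12% hold TGTTTA and 10.4% hold GTTGCC on either strand, so a match in a single promoter is a description and not a site. The X-box half-site was not limited to ependymal members. Otx2, a choroid plexus member with 4 RefSeq windows, held it 41 bases before the start of window 1 and 44 bases before that of window 2. The match in window 2 extends to the longer GTTGCCA, which 3.66% of all promoters hold.

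Levels were compared between genes per kilobase of exon, as the mean over 7 pre-IP libraries with the coefficient of variation (SD as a percent of the mean). Ttr had 706 CPM per kilobase (71.1%), and Foxj1 followed with 7.97 (9.83%). Ccdc153 had 4.47 (27.1%), Clic6 4.24 (49.9%), Tmem212 4.17 (26.2%) and Folr1 3.72 (72.5%), and these neighbours did not differ beyond their spread. Otx2 with 2.04 (40.0%) and Kl with 1.39 CPM per kilobase (50.4%) were the lowest. In IP the order began with Ttr at 756 and ended with Otx2 at 1.53 and Kl at 1.11 CPM per kilobase.

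The genes whose pre-IP pattern was most like that of Ttr were Cldn2, Rab20, Ecrg4, Kcnj13 and Calml4, by Pearson correlation of log2 CPM over 7 libraries among 14994 genes, given as a description. Cldn2, a tight-junction claudin of leaky epithelia, had r = 0.99 and ran from 0.37 CPM in M and 1.15 in L to 6.28 in K. Kcnj13, an inward rectifier potassium channel of the choroid plexus, had r = 0.98 and ran from 0.64 CPM in M and 1.04 in L to 5.38 in K. Of the 5 genes, 4 stand in the choroid plexus list used here, and Rab20, a small GTPase, does not. Among the members, Folr1 ranked 3 in likeness to Ttr (r = 0.99), Clic6 ranked 18 (0.96), Kl 44 (0.93) and Otx2 757 (0.74), and the 3 ependymal genes had r from 0.24 to 0.46. Without L and M, the 2 libraries farthest from the median, r was 0.99 for Folr1, 0.97 for Ecrg4 and 0.95 for Kcnj13, but 0.69 for Cldn2, 0.67 for Kl and -0.06 for Otx2, whose likeness rests on those libraries.

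Ccdc153 had other neighbours: Hcrt, Tbata, Dlx2, Nkx2-1 and Pde10a. Hcrt encodes the hypocretin neuropeptide of the lateral hypothalamus, and it had 0.13 CPM in M and 0.22 in K against 9.94 in B, 28.2 in C, 19.5 in L, 21.7 in H and 34.6 in I (r = 0.99). Nkx2-1 and Dlx2, homeodomain factors of the hypothalamus and forebrain, had 0 counts in M and K and from 0.59 to 2.25 CPM in the other 5 pre-IP libraries. None of the 5 is in the ependymal list. Tmem212 ranked 126 in likeness to Ccdc153 (r = 0.92, and 0.37 without M and K), and Foxj1 ranked 4852 (r = 0.44). These 5 genes were picked for tracking Ccdc153, so their low values in M and K follow from the choice, and no list of hypothalamic or forebrain genes was examined.

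Other genes of both tissues were examined as lists, and all 28 choroid plexus and all 34 ependymal genes had counts in every pre-IP library. For each gene, log2 CPM in an animal was set against the median over the 7 animals of the same fraction. In pre-IP the 26 choroid plexus genes with a mean of at least 1 CPM had a median deviation of 0.21 in B, 0.31 in C, -1.03 in L and -1.43 in M, and of 0.00 in H, -0.31 in I and 0.34 in K. M was the lowest library for 17 of the 26 (65.4%) and L for 4 (15.4%), against 14.5% and 17.2% of all 14995 genes. The 23 ependymal genes had a median deviation of -0.57 in M and -0.19 in K and from 0.00 to 0.11 in the other 5 animals, and M was the lowest for 13 of the 23. L lay 1.03 below the median for the choroid list and 0.06 above it for the ependymal list.

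**Figure D2:**
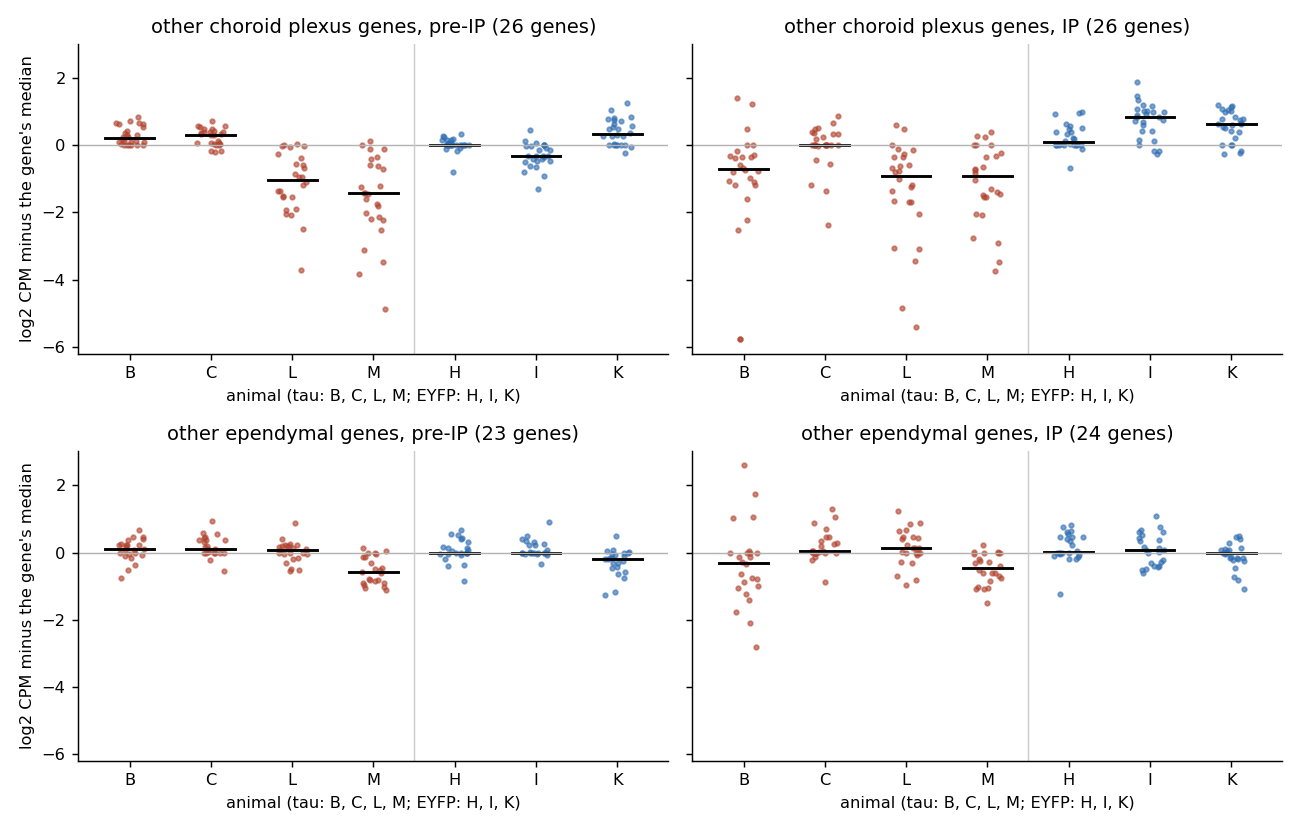
Deviation of log2 CPM of each gene from its median over 7 animals (points) and the median over the list (black line), for the other choroid plexus genes (top) and the other ependymal genes (bottom), in pre-IP (left) and IP (right). In pre-IP the choroid list lies at -1.03 in L and -1.43 in M, while the ependymal list lies at -0.57 in M, -0.19 in K and 0.06 in L.

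Single genes of the lists had the same animals low. Aqp1, the water channel of the choroid plexus, had 1.29 CPM in L and 0.81 in M pre-IP against 3.11 to 8.12 in the other 5. Kcne2, a potassium channel subunit there, had 0.70 CPM in L and 0.29 in M against 3.85 to 14.02. Rsph1, a radial spoke protein of motile cilia, had 8.49 CPM in M and 12.2 to 19.6 in the other 6. Dynlrb2, a dynein light chain, had 3.56 CPM in M and 4.21 to 8.45 elsewhere, and Tekt1, a tektin of the cilium, 2.48 CPM in M and 3.74 to 6.23 elsewhere.

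Markers of neighbouring tissues moved with some of these animals. The 5 pituitary genes found summed to 5819 CPM in the pre-IP of L, 846 in M and 763 in K, against 14.3 to 101 CPM in B, C, H and I. The 5 cerebellar granule cell genes summed to 43.5 CPM in M, the lowest pre-IP library, with a range of 55.7 to 133 in the other 6. The 8 meningeal fibroblast genes summed to 72.8 to 86.2 CPM in tau pre-IP and 60.9 to 125 in EYFP pre-IP, and the 7 endothelial genes to 37.5 to 39.9 and 36.4 to 42.2 CPM. Fshb was the only pituitary gene with 0 counts in any library, and the other lists named here had none at 0. The part of these tissues in the choroid plexus and ependymal values was not tested.

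The first comparison asked what the pull-down kept or lost of these transcripts. Foxj1 fell by 0.84 in IP against pre-IP (log2, SE 0.18, with an edgeR adjusted p of 0.00312), and none of the other 7 members passed an adjusted p under 0.05. Over all 20495 genes tested, 28.1% passed and 13.6% passed as lower in IP, so 1 member of 8 is a share of the same order. Unadjusted, 39% of all genes and 1 of the 8 members had p under 0.05. The log2 fold changes of the others were -0.06 for Ttr (SE 0.76), 0.02 for Folr1 (SE 0.63), -0.27 for Clic6 (SE 0.43) and -0.32 for Kl (SE 0.35). Those of Otx2, Tmem212 and Ccdc153 were -0.39 (SE 0.27), -0.32 (SE 0.28) and -0.29 (SE 0.20). The edgeR adjusted p-values of these 7 ran from 0.299 to 0.983. By contrast all 9 tested noradrenergic genes rose, with a median log2 fold change of 2.39, while the median over all genes was -0.00. The SEs above come from a fit that did not pair both fractions of an animal. With a block for the animal, Ttr had 0.11 (SE 0.21), Folr1 0.15 (SE 0.22) and Clic6 -0.36 (SE 0.21). Kl had -0.30 (SE 0.19) and Otx2 -0.36 (SE 0.16). Foxj1 remained the only member to pass. Unadjusted, 2 of the 8 members and 8259 of 20495 genes had p under 0.05 in that edgeR fit.

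Per animal, Foxj1 in IP was 25.9% of pre-IP in B, 45.6% in C, 46.4% in L and 64.9% in M, and 82.6% in H, 66.2% in I and 72.0% in K, after scaling of the libraries. It was lower in IP in 7 of 7 animals, and the share of all genes with that order was not counted. The log2 ratios had a mean of -1.20 ± 0.55 over the tau animals (SD, n = 4) against -0.45 ± 0.16 over the EYFP animals (SD, n = 3). Fitted alone, the tau animals gave a log2 fold change of -1.15 (edgeR adjusted p 0.0144) and the EYFP animals -0.44 (edgeR adjusted p 0.171), so the call was lost in the latter. Over the 17 fits of this contrast, the adjusted p of Foxj1 ran from 9.1e-05 (DESeq2) to 0.171 (edgeR, EYFP animals alone). The same animals differed in the pull-down itself: the median log2 ratio of the noradrenergic list was 4.53 in B, 3.54 in C, 3.64 in L and 1.84 in M, and 0.78 in H, 0.82 in I and 0.78 in K. Its part in the ratio of Foxj1 was not tested.

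Ttr in IP was 46.1% of pre-IP in B, 95.4% in C, 83.6% in L and 131.7% in M, and 131% in H, 227% in I and 117.9% in K. Folr1 was 57.4% in B, 101.2% in C, 79.0% in L and 109.4% in M, and 181.7% in H, 216.4% in I and 101.7% in K. The mean log2 ratio of Ttr was -0.26 ± 0.63 over the tau animals (SD, n = 4) against 0.60 ± 0.51 over the EYFP animals (SD, n = 3), and that of Folr1 was -0.25 ± 0.42 and 0.67 ± 0.57. For both genes the direction differed between animals, and the ratio spanned 46.1% to 227% for Ttr and 57.4% to 216.4% for Folr1. The low end of each span came from B, whose IP library stood apart. The high end came from I, whose IP had an RNA integrity number of 4.2. The mean ratios of Kl were -0.45 ± 0.53 and -0.09 ± 0.70, those of Clic6 -0.71 ± 0.58 and 0.09 ± 0.57, and those of Otx2 -0.52 ± 0.51 and -0.15 ± 0.21 (SD, n = 4 and n = 3). Tmem212 had -0.67 ± 1.09 and -0.05 ± 0.26, with -2.27 in B, and Ccdc153 had -0.43 ± 0.28 and -0.07 ± 0.33.

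**Figure D3:**
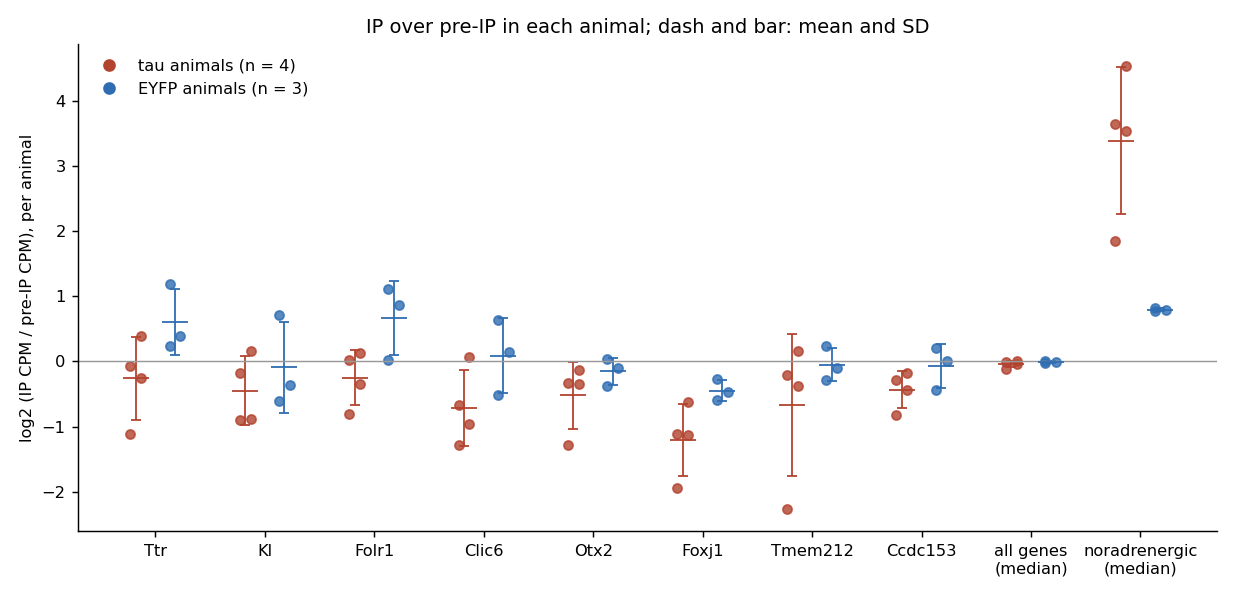
Log2 of IP over pre-IP CPM after library scaling, a point per animal, for the 8 genes, with the medians of all genes tested and of the noradrenergic list. Dashes and bars give mean and SD. Foxj1 is below 0 in all 7 animals, and the noradrenergic list lies between 1.84 and 4.53 in tau animals and near 0.8 in EYFP animals.

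Of the 28 other choroid plexus genes, 2 rose in IP and 2 fell, with a median of -0.23, where 28.1% of all genes were called. Prlr, the prolactin receptor, rose by 1.21 (SE 0.30, edgeR adjusted p 0.00618) and Cox8b, a subunit of cytochrome oxidase, by 0.50 (SE 0.16, edgeR adjusted p 0.0263). Abca4, a lipid transporter, fell by 0.93 (SE 0.28, edgeR adjusted p 0.0189) and Slc13a4, a sulfate transporter, fell by 0.58 (SE 0.19, edgeR adjusted p 0.0292). Aqp1 had a log2 fold change of -0.69, Kcne2 of -0.29 and Kcnj13 of 0.37, with edgeR adjusted p-values from 0.462 to 0.817.

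Of the 34 other ependymal genes, 5 rose and 2 fell, with a median of 0.14, beside the same 28.1% over all genes. Cfap144, a cilium protein gene, rose most, by 1.93 (SE 0.46, edgeR adjusted p 0.005). Its IP values were 99.1 CPM in B, 40.5 in C, 38.7 in L and 16.3 in M, and 6.98 in H, 13.04 in I and 9.29 in K, with 4.37 to 11.2 CPM in pre-IP. The animals stood in nearly the order of their noradrenergic ratio. The gene was named for its rise in these same data, and a link to that ratio was not tested. Spef2, a sperm flagellum and cilium protein gene, rose by 1.498 (SE 0.39, edgeR adjusted p 0.00942). Rfx2, a factor of cilium genes, fell by 0.82 (SE 0.21, edgeR adjusted p 0.00856), and Cimap1b fell by 0.56 (SE 0.19, edgeR adjusted p 0.0403). Rsph1, Dynlrb2 and Tekt1 had log2 fold changes of 0.31, 0.12 and 0.21, with edgeR adjusted p-values from 0.233 to 0.726. The list therefore held genes called in both directions. Rfx3, the other RFX factor of the list, had a log2 fold change of 0.34 (edgeR adjusted p 0.405).

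The second comparison asked whether tau and EYFP homogenates differed. None of the 8 members passed, and of 19197 genes tested edgeR called 0%, with 2.84% at unadjusted p under 0.05, where the members numbered 0 of 8. DESeq2's Wald test also called 0 genes. Ttr had a log2 fold change of -0.37 (SE 0.92), Kl of -0.54 (SE 0.44), Folr1 of -0.18 (SE 0.76) and Clic6 of -0.21 (SE 0.47). Otx2 had -0.02 (SE 0.35), Foxj1 0.02 (SE 0.15), Tmem212 -0.18 (SE 0.26) and Ccdc153 -0.03 (SE 0.26). The edgeR adjusted p was 1.0 for all 8. No member's tau and EYFP libraries were free of overlap, and 1.78% of all genes were lower in every tau than in every EYFP pre-IP library.

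The sign of the change depended on which single animal was left out for every member but Kl, the ependymal genes included. That of Kl stayed below 0 whichever single animal was left out, from -0.90 to -0.16. Without L and M, a setting chosen after the values were seen, the log2 fold change was 0.56 for Ttr (SE 0.24), 0.69 for Folr1 (SE 0.33), 0.43 for Clic6 (SE 0.24) and 0.49 for Otx2, with edgeR adjusted p-values of at least 0.836 for all 8 members. Without M alone it was 0.03 for Ttr, 0.21 for Folr1 and 0.10 for Clic6, and without EYFP animal K -0.05, 0.32 and 0.08. With the library-number range as a covariate the changes of Ttr, Folr1, Kl and Clic6 kept their sign. They were further below 0, -1.43 for Ttr, -0.73 for Folr1, -0.68 for Kl and -0.37 for Clic6, with edgeR adjusted p-values of 1.0. That of Otx2 turned positive. Of the 28 other choroid plexus genes, 25 were lower in tau pre-IP, with a median of -0.26 and 0 called, and of the 34 ependymal genes 13 were lower, with a median of 0.04 and 0 called. Aqp1, Kcne2 and Kcnj13 had -0.68, -0.16 and -0.47, and Rsph1, Dynlrb2 and Tekt1 had 0.04, 0.29 and 0.10 (edgeR adjusted p 1.0 each).

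A further comparison, tau IP against EYFP IP, is the contrast the study's design names. All 8 members had negative estimates, and 0 of 8 passed. Over the 19472 genes tested edgeR called 0%, and 12% had unadjusted p under 0.05 against 0 of the 8 members. DESeq2's Wald test called 342 genes and none of the members. Ttr had a log2 fold change of -1.52 (SE 0.91), Folr1 of -1.15 (SE 0.76), Kl of -0.87 (SE 0.46) and Clic6 of -0.78 (SE 0.62). Foxj1 had -0.66 (SE 0.30, edgeR adjusted p 0.424, the smallest of the members), Tmem212 -0.62 (SE 0.49), Otx2 -0.40 (SE 0.36) and Ccdc153 -0.37 (SE 0.28).

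Foxj1 and Tmem212 were lower in each of the 4 tau IP libraries than in each of the 3 EYFP IP libraries, up to 12.1 against at least 13.6 CPM for Foxj1 and up to 2.49 against at least 2.64 CPM for Tmem212. These are 2 of 8 members, and 9.22% of all genes had that order. The change of Ttr was -1.12 without M and -0.59 without L and M, that of Folr1 -0.78 and -0.28, and that of Clic6 -0.43 and -0.03. Other settings moved it further from 0: without C it was -2.35 for Ttr, -1.73 for Folr1 and -0.93 for Clic6. With the library-number range as a covariate it was -2.35 for Ttr, -1.66 for Folr1, -0.94 for Kl and -0.78 for Foxj1, and these 4 of 8 members had unadjusted p under 0.05, as did 15.3% of all genes, with edgeR adjusted p-values from 0.255 to 0.31. For Foxj1 it was -0.81 without M and -1.002 without L and M, with edgeR adjusted p-values of 0.242 and 0.154, the latter the smallest of any member over all fits of this contrast. Within the low library numbers, Ttr in IP was 616 CPM in B and 1139 in C against 1049 in H and 1783 in I, which overlap. Within the high numbers it was 94.9 in L and 31.4 in M against 1562 in K.

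**Figure D4:**
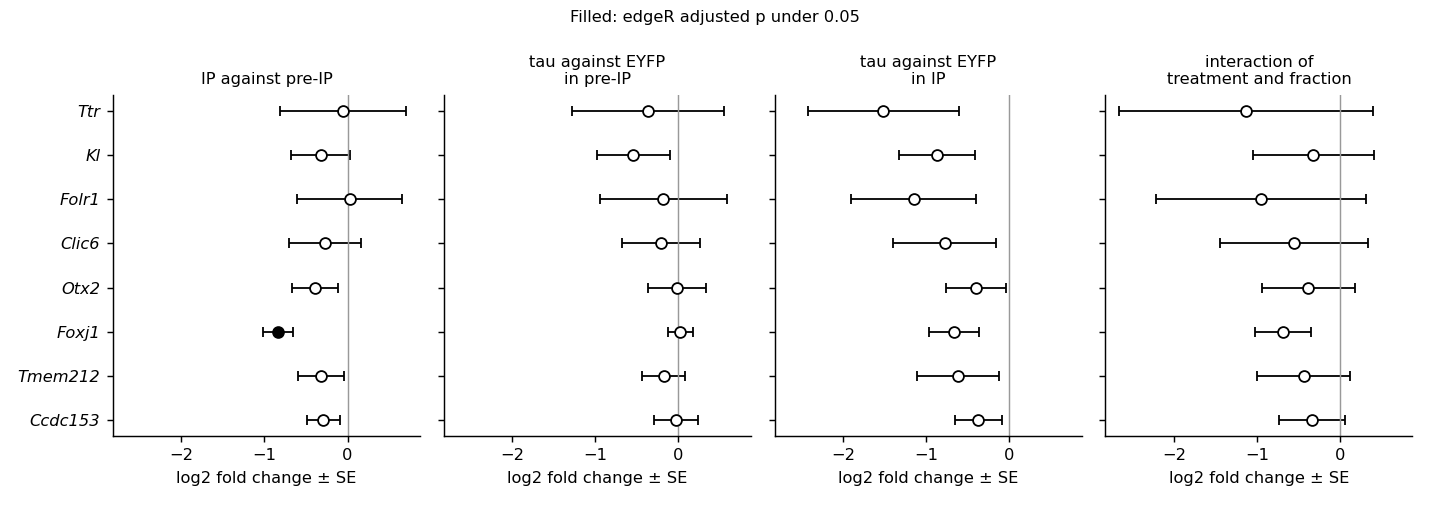
Log2 fold change with its SE for the 8 genes in the 4 comparisons, from edgeR, with filled circles for an adjusted p under 0.05. Foxj1 in IP against pre-IP is the single filled point at -0.84, and in tau against EYFP IP all 8 estimates lie between -1.52 and -0.37.

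Of the 28 other choroid plexus genes, 25 were lower in tau IP, with a median log2 fold change of -1.18 where the median of all genes was -0.08. None passed, and 10 of the 28 had unadjusted edgeR p under 0.05, 8 of them lower, beside 12% of all genes in either direction. Aqp1 had -1.84 (SE 1.01), Kcne2 -1.57 (SE 0.85) and Kcnj13 -1.15 (SE 0.55), with edgeR adjusted p-values from 0.439 to 0.503. Of the 33 ependymal genes tested, 23 were lower, with a median of -0.22 and 0 called. Unadjusted edgeR p was under 0.05 for 5 of the 33, beside the same 12% of all genes. Tekt1 had -0.68, Dynlrb2 -0.19 and Rsph1 0.16. Glial lists had lower estimates too: 5 of 5 astrocyte genes (median -0.52) and 5 of 5 oligodendrocyte genes (median -0.53). So did 7 of 8 meningeal fibroblast genes (median -0.65), 6 of 7 endothelial genes (-0.27) and 5 of 5 cerebellar granule cell genes (-0.20). Estimates were positive for 9 of 9 noradrenergic genes (median 2.83) and 5 of 5 pituitary genes (median 3.28). The pituitary genes were higher in tau pre-IP as well, 5 of 5 with a median of 3.86. Again 0 genes of these lists were called. Their part in the choroid plexus and ependymal values was not tested.

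The last comparison tested whether IP over pre-IP differed between tau and EYFP animals, as the interaction of treatment and fraction. None of the 8 members passed, edgeR called 0% of 20495 genes, and 5.97% of all genes but 0 of the 8 members had unadjusted p under 0.05. DESeq2's Wald test called 52 genes and none of the members. The estimates were -1.13 for Ttr (SE 1.53), -0.96 for Folr1 (SE 1.26), -0.56 for Clic6 (SE 0.89) and -0.32 for Kl (SE 0.73). Foxj1 had -0.68 (SE 0.34, edgeR adjusted p 0.820), Tmem212 -0.44 (SE 0.56), Otx2 -0.38 (SE 0.56) and Ccdc153 -0.34 (SE 0.40). When both fractions were paired by a block for the animal, the SEs of the choroid plexus genes were smaller and 4 of 8 members had unadjusted p under 0.05, as did 8.51% of all genes. These were Ttr with -0.86 (SE 0.33), Folr1 with -0.95 (SE 0.34), Clic6 with -0.79 (SE 0.36) and Foxj1 with -0.75 (SE 0.30), with edgeR adjusted p-values from 0.531 to 0.582. Without M, and with no block, Foxj1 had -0.92 (edgeR adjusted p 0.495). The difference between tau and EYFP animals in the loss of Foxj1 from the IP therefore did not pass the test in either fit. Of the choroid list 25 of 28 and of the ependymal list 23 of 34 had negative estimates, with medians of -0.83 and -0.17 against -0.05 over all genes, and 0 were called. Aqp1, Kcne2 and Kcnj13 had -1.15, -1.40 and -0.67, and Rsph1, Dynlrb2 and Tekt1 had 0.14, -0.47 and -0.78, with edgeR adjusted p-values of at least 0.832.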

How the data were processed

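The values in the deposited table are raw counts of reads, whole numbers for each gene in each library. Per the submitters' processing notes, FastQC, Trim Galore, STAR and featureCounts were used with GRCm38/mm10; their settings are not given in the sources used here. The RNA integrity number, a quality score, and the RNA concentration came from the deposited sample sheet, per the file headers. Symbols came from the deposited gene table and, for 3669 entries without one, from GENCODE M21. How the brainstem was dissected is not given in the sources used here, and animals are the replicates.

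CPM used library totals of 41843489 to 65664551 counts. Genes were tested with edgeR 4.0.16 (quasi-likelihood F test, R 4.3.3), with filterByExpr, TMM scaling and Benjamini-Hochberg adjustment over all genes tested, at 0.05. SEs are the absolute log2 fold change divided by the root of F. IP was compared with pre-IP over 14 libraries with treatment as a term, tau with EYFP within each fraction, and the interaction over 14 libraries. Per-animal ratios used TMM-scaled CPM with a prior count of 2. Without TMM scaling the median log2 ratio of all genes in animal B was -0.36 instead of -0.11. Tests were run on simulated data first.

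The fractions share an animal, by the letter in the labels: deviations of IP and pre-IP from their group means correlated by 0.231 to 0.542 in each of 7 animals. The rule named all members, from each list the 2 largest changes past the threshold in each direction, 6 further list genes always, and the 5 genes most like Ttr and like Ccdc153. Members and lists were chosen with earlier results of these data known. RefSeq promoters were found for 4 of the 8 members. Alternatives were DESeq2 1.42.0 (size factors; Wald test), no filter, a mean of at least 50 counts, the library-number range as a covariate, each animal left out, a block for the animal, either treatment alone and, for ratios, a prior count of 0.5 or no scaling.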

Additional observations from a re-analysis of the deposited data

Results flagged for a closer look

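Otx2 in tau IP was flagged because a single library stood away from the rest of its group: animal C had 9.62 CPM, while the other 3 tau IP libraries had 3.64 to 4.62 CPM. The gap to its nearest neighbour was 0.836 of the range, past Dixon's 95% critical value. It was 1 of 24 groups of 4 values tested over the 8 genes, and chance flags about 1 in 20 such groups. Animal C lay close to EYFP animal H, which had 9.55 CPM in IP.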

How the results depend on the processing

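With the animal as a replicate block, IP against pre-IP gave 6076 called genes instead of 5755 (5405 in both), and it changed no member's call; Ttr turned from -0.06 to 0.11. In EYFP animals alone 1218 genes and 0 members were called, with 0.60 for Ttr and 0.0514 for Clic6; in tau animals alone Folr1 had -0.42, and with the library-number range as covariate -0.0573. Without L and M, chosen after seeing the data, 3263 genes were called and Ttr had 0.14. Leaving out each animal gave -0.29 to 0.26 for Ttr and -0.18 to 0.28 for Folr1.

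In tau against EYFP pre-IP, 44 genes were called without a filter, 1 without L and M, and 0 to 1 leaving out each animal. Without L and M, Ttr had 0.56, Kl 0.0867, Folr1 0.69, Clic6 0.43, Otx2 0.49, Foxj1 -0.0024 and Ccdc153 0.0784; with the library-number range as covariate Otx2 had 0.0859 and Ccdc153 0.0667, while Ttr moved to -1.43 and Folr1 to -0.73. Leaving out each animal gave -1.07 to 0.0322 for Ttr, -0.88 to 0.32 for Folr1, -0.64 to 0.10 for Clic6, -0.26 to 0.19 for Otx2, -0.0483 to 0.11 for Foxj1, -0.38 to 0.0079 for Tmem212 and -0.23 to 0.16 for Ccdc153.

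In tau against EYFP IP, 342 genes were called by DESeq2's Wald test, 113 without a filter, 308 without L and M and 0 to 128 leaving out each animal, the highest without M. The interaction gave 52, 67, 94 and 0 to 56, 0 with the animal as a replicate block, and Kl ran from -0.70 to 0.0278. No member was called under any of these settings. The cause of these moves was not tested. The SE of Ttr in tau against EYFP IP was 0.91, and 0.66 without M and 0.28 without L and M.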
